A study of Mus musculus with 12 samples.

Results

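*Grm2*, *Grm3*, *Grm4*, *Grm5*, *Grm7* and *Grm8* encode metabotropic glutamate receptors, and their expression was examined in primary mouse hippocampal cultures in which the lncRNA *Neuid* had been knocked down. The members were chosen by gene symbol, which selected 6 of the 55471 genes in the count table, and all 6 passed the filter on low counts. *Grm6*, another receptor of this family, is given as values only. The cultures were prepared from the hippocampi of wild-type CD1 embryos at E17, from mixed-sex litters, and were kept in Neurobasal medium with B27. At day 7 in vitro (DIV 7) the cells of both groups received an LNA gapmer, a short antisense oligonucleotide that directs RNase H to its target RNA, packed in lipid nanoparticles. The control group received a negative control gapmer and the *Neuid* KD group received a gapmer against *Neuid*, so that the knock down rests on 1 gapmer sequence. RNA was collected at DIV 10 and sequenced as total RNA, with 6 libraries per group. The labels do not say whether the libraries came from separate cultures, so the p-values measure the spread between these samples, which may be technical.

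Metabotropic glutamate receptors are G protein-coupled receptors that respond to the same transmitter as the fast ionotropic receptors, but act through second messengers. Group I receptors, among them the product of *Grm5*, couple to Gq and phospholipase C, sit mainly around the postsynaptic density and are bound there by Homer proteins. Group II (*Grm2*, *Grm3*) and group III receptors (*Grm4*, *Grm6*, *Grm7*, *Grm8*) couple to Gi/o, lower cAMP, and at many presynaptic terminals reduce transmitter release. In the brain, *Grm3* is expressed by astrocytes as well as neurons, and *Grm5* is expressed by neurons and by astrocytes of the young brain, whereas *Grm2*, *Grm4*, *Grm7* and *Grm8* are mainly neuronal. *Grm6* is known from ON bipolar cells of the retina.

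The control libraries held 18002585 to 30914714 counted reads and the *Neuid* KD libraries 11152556 to 30573480. Levels are given as CPM, reads scaled to the TMM library size. The targeted gene *Neuid* (Gm10419) had a mean of 28.4 ± 2.03 CPM in control against 8.05 ± 1.13 CPM in *Neuid* KD (SD, n = 6 per group). Its log2 fold change was -1.81 (SE 0.0845, edgeR adjusted p = 1.32e-10), and the groups did not overlap. Background reads were measured on 2014 olfactory, vomeronasal and taste receptor genes, which such cultures should hardly express. These genes summed to 26.7 to 667 CPM in control and 27.1 to 616 CPM in *Neuid* KD, and 4 control and 3 *Neuid* KD libraries were at 100 CPM or more. Neuronal markers were abundant (6800 to 7950 CPM summed over 12 genes in control, 6700 to 7960 CPM in *Neuid* KD), and astrocyte markers were also present. Of 10 microglial markers, 7 stayed under 1 CPM in every library, among them *P2ry12*, *Tmem119* and *C1qa*.

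Of the 6 members, 2 were higher in *Neuid* KD (*Grm3* and *Grm7*), 0 were lower and 4 did not pass the test, at an edgeR adjusted p below 0.05. Over all 19578 genes tested, 8.72% passed the same test, 6.31% as higher and 2.42% as lower. When an absolute log2 fold change above 0.5 was also required, 1 member was higher, *Grm3*, and 0 were lower, against 2.44% and 0.792% of all genes. The median log2 fold change of the members was 0.09, and that of all tested genes was -0.03. *Grm3* was the only member whose groups did not overlap. Over all tested genes, the groups did not overlap for 5.7%, with *Neuid* KD above for 4.13% and below for 1.57%.

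**Figure D1:**
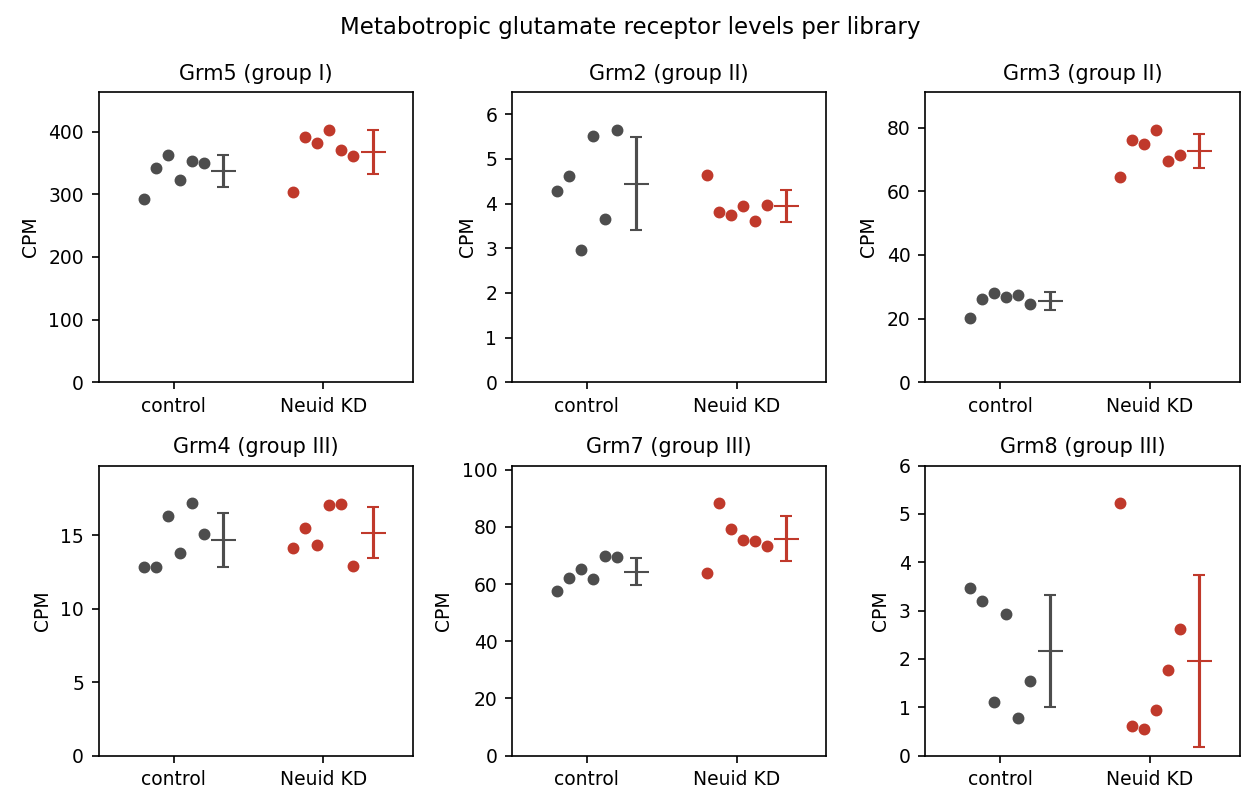
Level of each receptor in every library, as CPM on a linear axis that starts at 0, with 6 control and 6 *Neuid* KD libraries. Points are libraries and bars are the mean and SD. The 6 *Neuid* KD libraries of *Grm3* lie between 64.5 and 79.3 CPM, all above the highest control library at 27.9 CPM, whereas the groups of the other members overlap.

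*Grm3* (ENSMUSG00000003974) encodes a group II receptor. The gene lies on the minus strand of chromosome 5, from 9485541 to 9725170 in GRCm38, the assembly also called mm10, and its merged exons span 3049 bases. In control libraries 1 to 6 it was at 20.03, 26.2, 27.9, 26.7, 27.4 and 24.7 CPM. In *Neuid* KD libraries 1 to 6 it was at 64.5, 76.1, 74.7, 79.3, 69.6 and 71.3 CPM. All *Neuid* KD libraries were above all control libraries, and the lowest library of each group was replicate 1, which was also the library with the most background reads in its group. The mean rose to 72.6 ± 5.24 CPM with the knock down, against 25.5 ± 2.89 CPM in control (SD, n = 6 for each), a 2.85-fold difference with a 95% interval of 2.56 to 3.17. The log2 fold change was 1.51 (SE 0.073, edgeR adjusted p = 1.92e-10) and ranked 49 of 19578 tested genes from the highest. The exact permutation test of the CPM values, two-sided, gave p = 0.002165, the smallest that 6 against 6 libraries allow. The difference rested on 388 to 2267 reads per library. None of the 50-base stretches of the longest *Grm3* transcript occurred in another gene.

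*Grm2* (ENSMUSG00000023192), the other group II receptor and the closest relative of *Grm3*, is a presynaptic autoreceptor at many glutamatergic terminals. It lies on the minus strand of chromosome 9, from 106643095 to 106656082. Its level was low, with 55 to 125 reads per library. Control libraries ranged from 2.97 to 5.65 CPM (median 4.45) and *Neuid* KD libraries from 3.61 to 4.63 CPM (median 3.88), so that the *Neuid* KD values lay within the range of the control values. The log2 fold change was -0.17 with a 95% interval from -0.5 to 0.15 (SE 0.154, edgeR adjusted p = 0.674). A rise of the size seen for *Grm3* lies outside this interval. Exons of *Grm2* share 470 bases with Gm28111 on the opposite strand, which was at 0.0386 CPM in control against 0.0433 CPM in *Neuid* KD.

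The RefSeq promoter windows of these group II genes are shown because *Grm3* and *Grm2* are the most similar receptors by ligand and coupling and differed in whether they passed the test. Each window runs from 250 bases before to 50 bases after the RefSeq start (GRCm38.p6), is written in the direction of transcription, and has its CpG dinucleotides in capitals. The gene positions given above come from GENCODE, whose starts differ. The *Grm3* window lies wholly upstream of its GENCODE position, whereas the *Grm2* window overlaps its own. Windows were found for 4 members, *Grm2*, *Grm3*, *Grm7* and *Grm8*.
Grm3, chr5:9725303-9725602, minus strand: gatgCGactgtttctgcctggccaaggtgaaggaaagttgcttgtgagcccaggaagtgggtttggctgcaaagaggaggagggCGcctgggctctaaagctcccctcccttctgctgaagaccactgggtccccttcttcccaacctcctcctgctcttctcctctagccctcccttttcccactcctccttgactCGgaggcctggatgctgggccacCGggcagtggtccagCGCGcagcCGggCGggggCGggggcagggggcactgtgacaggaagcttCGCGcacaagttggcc
Grm2, chr9:106656060-106656359, minus strand: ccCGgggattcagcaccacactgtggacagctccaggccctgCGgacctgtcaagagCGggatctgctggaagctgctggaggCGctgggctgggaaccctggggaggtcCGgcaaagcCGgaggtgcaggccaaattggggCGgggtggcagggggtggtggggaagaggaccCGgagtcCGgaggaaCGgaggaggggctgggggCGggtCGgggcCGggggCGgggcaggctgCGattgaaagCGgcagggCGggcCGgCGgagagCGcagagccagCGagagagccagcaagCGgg

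The *Grm3* window held 11 CpG dinucleotides at 63.7% GC, and the *Grm2* window held 22 at 72.0% GC. Over 32817 mouse promoter windows of the same length, the median was 7 CpG and 52.7% GC, and 58.6% of windows had fewer CpG than *Grm3* and 76.9% had fewer than *Grm2*. Motif letters were searched on both strands. The TTGGC element of NFI sites matched at 3 positions in the *Grm3* window and at 1 in the *Grm2* window, and 46.7% of all windows held at least 1. The share of windows with 3 or more was not counted, so whether 3 matches are unusual is not known. The E-box CANNTG, which 72.3% of all windows held, matched in neither, and nor did the full palindromic NFI motif (0.0366% of windows), which contains the shorter element, STAT TTCNNNGAA (8.29%), SOX AACAAT (10.7%), CRE TGACGTCA (1.79%), its shorter form TGACG (20.8%), which overlaps it, or TATAAA (13.6%). These matches describe the letters in the windows, and no binding was measured in these libraries.

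*Grm7* (ENSMUSG00000056755) encodes a group III receptor with low affinity for glutamate that is found at presynaptic active zones. It spans chromosome 6 from 110645581 to 111567230 on the plus strand. In control libraries 1 to 6 it was at 57.6, 62.1, 65.4, 61.8, 69.8 and 69.7 CPM. In *Neuid* KD libraries 1 to 6 it was at 64.0, 88.3, 79.4, 75.6, 75.0 and 73.5 CPM. The groups overlapped: 5 of the 6 *Neuid* KD libraries were above the highest control library, and replicate 1 was not. The mean was 64.4 ± 4.8 CPM in control against 76.0 ± 7.93 CPM in *Neuid* KD (SD, n = 6 per group). The log2 fold change was 0.24 (SE 0.0691, 95% interval 0.1 to 0.39, edgeR adjusted p = 0.0367). This call was close to the threshold and was lost in 10 of 12 fits that left out 1 library (control replicate 1, 2, 3, 4 or 6, or *Neuid* KD replicate 2, 3, 4, 5 or 6), with log2 fold changes from 0.18 to 0.25 and adjusted p from 0.0661 to 0.237. It was also lost among the libraries with at least 100 CPM of background (log2 fold change 0.19, adjusted p = 0.561) and kept among those under 100 CPM (0.24, adjusted p = 0.00742). The latter were only 2 control and 3 *Neuid* KD libraries, and the former 4 and 3. Of all 11 processing alternatives, 7 kept the call and 4 lost it. Exons of *Grm7* share 130 bases with Gm20387 on the opposite strand, at 2.16 CPM in control against 1.72 CPM in *Neuid* KD. The strand setting of the counting is not stated, so reads on the shared bases of these gene pairs may not be told apart.

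*Grm5* (ENSMUSG00000049583), the group I receptor that drives much of the postsynaptic metabotropic response in the hippocampus, was the member with the most reads, 3601 to 11516 per library. The gene spans chromosome 7 from 87584168 to 88134907 on the plus strand. In control libraries 1 to 6 it was at 292, 343, 363, 323, 353 and 349 CPM. In *Neuid* KD libraries 1 to 6 it was at 303, 391, 382, 403, 370 and 360 CPM. The groups overlapped, with 4 of 6 *Neuid* KD libraries above the highest control library. The mean was 337 ± 26 CPM in control against 368 ± 35.1 CPM in *Neuid* KD (SD, n = 6 per group). The log2 fold change was 0.13 (SE 0.0683, 95% interval -0.02 to 0.27, edgeR adjusted p = 0.355). The interval leaves room for a rise of up to 1.21-fold.

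*Grm4* and *Grm8* encode presynaptic group III receptors that bind glutamate with higher affinity than the product of *Grm7*. *Grm4* (ENSMUSG00000063239; chromosome 17, 27422387 to 27521403, minus strand) ranged from 12.8 to 17.2 CPM in control (median 14.4) and from 12.9 to 17.1 CPM in *Neuid* KD (median 14.9). The ranges nearly coincided, and the log2 fold change was 0.06 (SE 0.0892, 95% interval -0.13 to 0.24, edgeR adjusted p = 0.841), with a sign that differed between settings. *Grm8* (ENSMUSG00000024211; chromosome 6, 27275119 to 28135178, minus strand) had 12 to 75 reads per library. It ranged from 0.786 to 3.46 CPM in control (median 2.23) and from 0.561 to 5.22 CPM in *Neuid* KD (median 1.35), and *Neuid* KD replicate 1 was the highest of the 12 libraries. Its log2 fold change was -0.19 with a 95% interval from -1.28 to 0.9 (SE 0.515, edgeR adjusted p = 0.908), so that neither a large rise nor a large fall could be told from no difference. *Grm6* had 0 to 24 reads per library, at 0.519 ± 0.477 CPM in control against 0.604 ± 0.653 CPM in *Neuid* KD (SD, n = 6 per group).

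**Figure D2:**
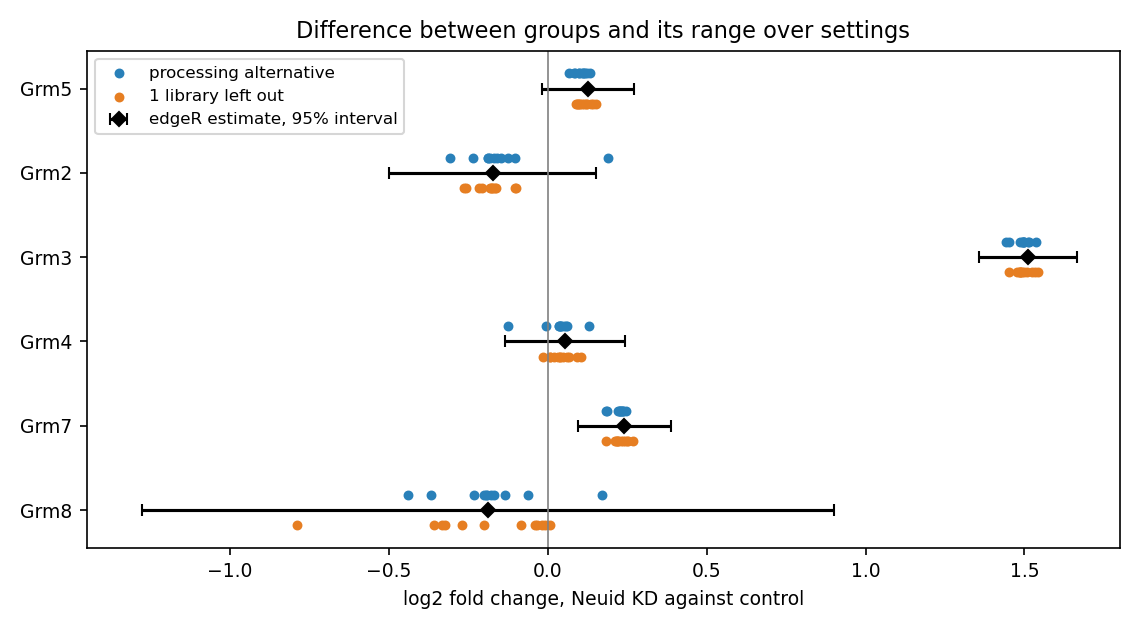
Log2 fold change of each receptor, *Neuid* KD against control, on the x axis. Diamonds and bars are the edgeR estimate and its 95% interval, blue points are the processing alternatives, and orange points are the fits without 1 library. *Grm3* stays between 1.44 and 1.54 over all of them, and the points of *Grm2*, *Grm4* and *Grm8* lie on both sides of 0.

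Levels of different receptors were compared per kb of merged exon (CPM per kb), since longer genes collect more reads. In control cultures the order was *Grm5* (32.9 ± 2.54 CPM per kb), *Grm7* (10.9 ± 0.815), *Grm3* (8.35 ± 0.947), *Grm4* (2.45 ± 0.307), *Grm2* (0.909 ± 0.214) and *Grm8* (0.219 ± 0.117; SD, n = 6 for each). No neighbours in this order of the 6 members overlapped between libraries. The closest neighbours were *Grm7* and *Grm3*, whose means differed 1.31-fold. In *Neuid* KD cultures *Grm3* stood at 23.8 ± 1.72 CPM per kb, above *Grm7* at 12.9 ± 1.35 and below *Grm5* at 35.9 ± 3.43 (SD, n = 6 for each). *Grm3* and *Grm7* thus exchanged places, and again no neighbours overlapped.

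**Figure D3:**
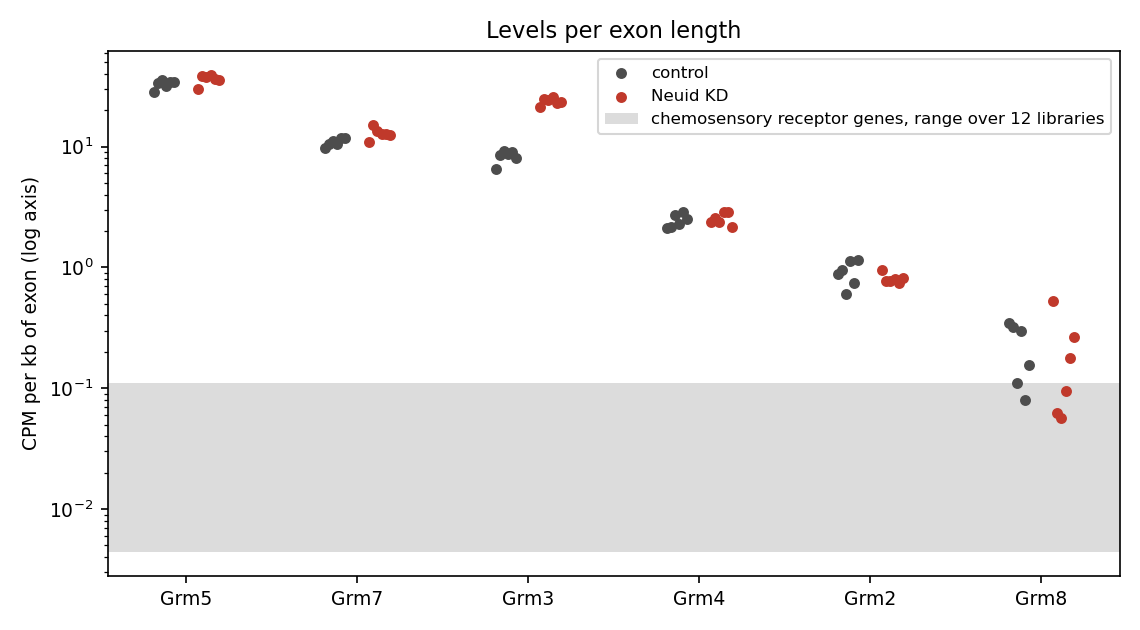
Level of each receptor per kb of merged exon (CPM per kb, log axis) in every library, with control and *Neuid* KD shown separately; points are libraries. The grey band spans the background genes, from 0.00442 to 0.11 CPM per kb. *Grm3* in *Neuid* KD lies at 21.2 CPM per kb or more, above *Grm7*, and *Grm8* reaches into the band. The band covers all libraries, and within the same library *Grm8* was at 3.01 times the background or more.

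As a share of the summed per-kb signal of the 6 members, *Grm3* held 13.6 to 16.0% in control libraries and 30.3 to 32.3% in *Neuid* KD libraries. *Grm5* held 57.8 to 59.9% in control and 45.2 to 48.0% in *Neuid* KD. These shares add up to the whole, so a rise of *Grm3* lowers the shares of the other receptors even where their levels do not differ. Within a library, log2 of the ratio of *Grm3* to *Grm5* CPM lay between -3.86 and -3.6 in control libraries and between -2.41 and -2.23 after the knock down, a difference of 1.39 between the means. The ratios of *Grm3* to *Grm7* (difference 1.28), *Grm4* (1.46) and *Grm2* (1.66) were also higher in every *Neuid* KD library than in any control library, whereas its ratio to *Grm8* overlapped. The groups overlapped for the ratios of *Grm5* to *Grm7* (difference -0.11), *Grm4* (0.07), *Grm2* (0.26) and *Grm8* (0.53). Of the receptors that astrocytes are known to express, *Grm3* was thus displaced against *Grm2*, *Grm4* and *Grm7* without overlap, which was not the case for *Grm5*. These ratios were not tested.

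Markers of astrocytes moved together with *Grm3*. Of 16 astrocyte genes, 15 were tested, 14 were higher in *Neuid* KD and 0 were lower, with a median log2 fold change of 1.25 (range 0.41 to 2.64). Their sum was 1910 to 2390 CPM in control and 3550 to 4270 CPM in *Neuid* KD (exact permutation test, two-sided, p = 0.002165), and none of the 16 stayed under 1 CPM in all libraries. Within this list, *Gja1* (connexin 43) rose by 2.27 and *Aqp4* (aquaporin 4) by 2.10 on the log2 scale, against 1.51 for *Grm3*, and *Slc1a3* (the glutamate transporter GLAST) by 1.25, *Slc1a2* (GLT-1) by 0.63 and *Aldoc* by 0.47. The log2 ratio of *Grm3* to *Slc1a3* within a library lay between -3.82 and -3.67 in control libraries and between -3.63 and -3.39 after the knock down, and the ratio to *Gja1* between -0.22 and 0.01 and between -1.02 and -0.74. *Grm3* was thus higher relative to *Slc1a3*, *Slc1a2* and *Aldoc*, and lower relative to *Gja1*, in every *Neuid* KD library. Of 8 genes listed as markers of oligodendrocyte precursors, 4 were higher (*Bcan*, *Olig1*, *Olig2* and *Vcan*) and 4 did not pass the test, namely *Pdgfra* (log2 fold change 0.44), *Cspg4* (0.16), *Sox10* (0.09) and *Gpr17* (-0.77), with edgeR adjusted p from 0.223 to 0.954. Their sum was 188 to 215 CPM against 482 to 573 CPM (exact permutation test, two-sided, p = 0.002165), and most of the difference lay in *Bcan* (55.04 against 202 CPM) and *Olig1* (78.17 against 216.3 CPM). The part of these glial markers in the result for *Grm3* was not tested. In bulk RNA, more cells of a type, more RNA per cell and glial genes expressed by neurons cannot be told apart. The authors propose the last of these.

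Neuronal markers were followed beside the neuronal receptors. Of 12 general neuronal genes, 1 was higher (*Nefm*), 1 was lower (*Elavl4*) and 10 did not pass the test, and their summed CPM overlapped (exact permutation test, two-sided, p = 0.8593). Markers of excitatory neurons summed to 1540 to 1850 CPM in control and 1860 to 2050 CPM in *Neuid* KD (exact permutation test, two-sided, p = 0.002165), with *Camk2a* higher, *Slc17a6* lower and 4 genes that did not pass the test. Most of the difference in this sum lay in *Camk2a*, at 698.8 CPM in control against 907.3 CPM in *Neuid* KD, whereas *Slc17a7* was at 444.2 against 463.7 CPM (adjusted p = 0.61). Those of inhibitory neurons, 8 genes at 189 to 221 CPM in control and 176 to 205 CPM in *Neuid* KD, had 0 calls in either direction. The part of these values in the result for *Grm7* was not tested. Summed markers of myelinating oligodendrocytes (26.3 to 34.9 CPM in control, 23.2 to 35.6 CPM in *Neuid* KD), microglia (6.57 to 12.3 and 5.84 to 11.9 CPM), endothelial cells (6.94 to 25.1 and 7.02 to 23.2 CPM) and fibroblasts or mural cells (39.7 to 71.0 and 37.4 to 60.0 CPM) overlapped between groups. *Mog*, *Cldn11* and *Cldn5* stayed under 1 CPM in every library.

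The members differed in how far their levels followed the background reads over the 12 libraries. *Grm8* rose with log2 of the background, with Pearson r = 0.916 (permutation test, p = 0.00011, adjusted over 6 relations 0.00066) and Spearman rho = 0.895 (permutation test, p = 0.0002, adjusted 0.0012). The coefficient r was 0.928 once the 2 libraries most distant from the median background were dropped, 0.958 within control and 0.942 within *Neuid* KD. In the same library *Grm8* was at 3.01 to 25.1 times the level that background reads over a gene of its length would give, the lowest ratio of the 6 members. *Grm2* had a weaker relation of the same sign (r = 0.654, permutation test, p = 0.021, adjusted 0.038; rho = 0.692, p = 0.015, adjusted 0.023), with r = 0.505 without those 2 libraries, 0.75 within control and 0.537 within *Neuid* KD. *Grm5* went the other way (r = -0.72, permutation test, p = 0.0083, adjusted 0.025; rho = -0.762, p = 0.0054, adjusted 0.016; r = -0.729 without those 2), as did *Grm4* (r = -0.658, permutation test, p = 0.025, adjusted 0.038; rho = -0.713, p = 0.012, adjusted 0.023; r = -0.768). Within groups, r was -0.773 and -0.792 for *Grm5* and -0.942 and -0.281 for *Grm4* in control and *Neuid* KD. For *Grm7*, rho was -0.65 (permutation test, p = 0.026, adjusted 0.031) and r was -0.559 (p = 0.06, adjusted 0.072; -0.656 without those 2; -0.724 and -0.711 within groups). The *Grm3* levels fall into separate clusters by group, so no pooled relation is given for it. Within groups, r was -0.605 in control and -0.863 in *Neuid* KD, of the same sign as for *Grm5* and *Grm7*. The log2 fold change of *Grm3* was 1.499 within the libraries of at least 100 CPM of background and 1.44 within those under 100 CPM. The latter were only 2 control and 3 *Neuid* KD libraries.

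**Figure D4:**
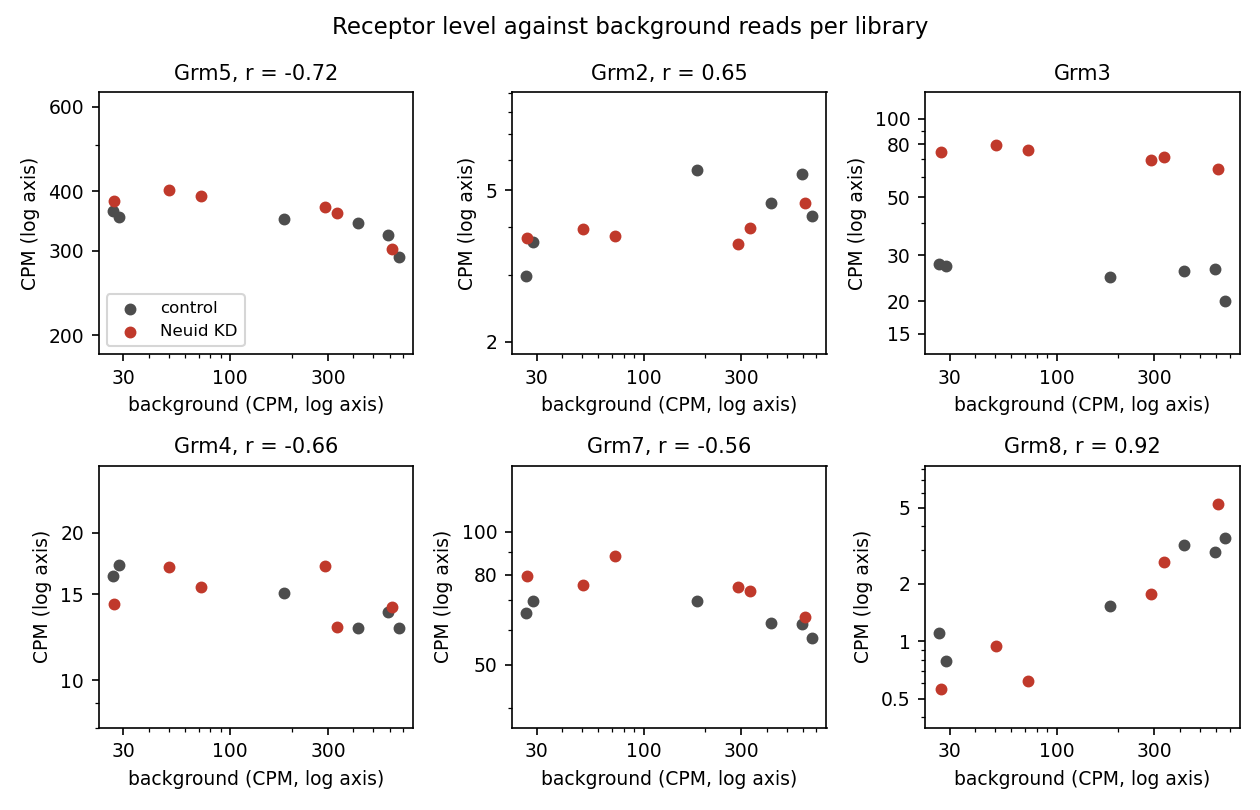
CPM of each receptor (log axis) against the summed CPM of the background genes (log axis), 1 panel per receptor and 1 point per library. *Grm8* rises with the background in both groups, and the 6 *Neuid* KD libraries of *Grm3* lie above the control libraries over the whole range of background, from 26.7 to 667 CPM.

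The genes whose log2 CPM followed each member most closely over the 12 libraries were taken from 15200 genes with at least 1 CPM on average, as a description without a test. For *Grm3* these were *Qk*, an RNA-binding protein of glia (r = 0.996 over all libraries and 0.948 after subtraction of the group means), *Rhoq* (0.996 and 0.857) and *Slc1a3* (0.995 and 0.855). All 3 were higher in *Neuid* KD, with log2 fold changes of 0.91, 0.99 and 1.25. Their choice by r over all libraries fixed this direction, because the *Grm3* groups did not overlap. For *Grm5* the first was *Gnaq*, the G protein subunit through which it signals (r = 0.993 and 0.991), then *Mib1* (0.99 and 0.988) and *Tcf20* (0.984 and 0.982). *Grm7* was followed by *Zfp664* (0.957 and 0.916) and 2610507B11Rik (0.955 and 0.911). For *Grm4* they were *Dap3*, *Rnps1* and *Srsf2* (r from 0.888 to 0.902), and for *Grm2* *Ttll5*, *Gamt* and *Gins3* (0.863 to 0.898). *Grm8* had Gm3294, Gm11864 and *Sag*, the arrestin of retinal photoreceptors (0.972 to 0.974). The libraries share depth and background, so a high r says only that the values moved alike.

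The partners of group I receptors were followed in a list of 30 genes, from Gq and phospholipase C to Homer and Shank scaffolds, all of which were tested. Of these, 2 were higher in *Neuid* KD, 1 was lower and 27 did not pass the test, with a median log2 fold change of 0.01 against -0.03 over all genes. The shares over all tested genes were 6.31% higher and 2.42% lower. *Itpr2*, an IP3 receptor of the endoplasmic reticulum that is the main type in astrocytes, rose from 15.07 to 33.89 CPM without overlap of the groups (log2 fold change 1.17, SE 0.0806, edgeR adjusted p = 1.79e-08). *Plcb1*, the phospholipase C of the Gq pathway in many forebrain neurons, was at 187.7 CPM in control against 223.5 CPM in *Neuid* KD (0.25, adjusted p = 0.0101), and *Mapk3*, which encodes the kinase ERK1, was the 1 lower gene (-0.18, adjusted p = 0.0436). *Gnaq* (0.10, adjusted p = 0.451) and *Homer1* (0.12, adjusted p = 0.361) did not pass the test, like *Grm5* itself. The counts for this list ranged from 1 to 5 higher and from 0 to 2 lower when 1 library was left out, with 5 higher without *Neuid* KD replicate 1, 1 higher without *Neuid* KD replicate 2 or 6, 2 lower without *Neuid* KD replicate 6, and 0 lower without control replicate 2, 3, 5 or 6 or *Neuid* KD replicate 2, 3 or 4.

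The second list held 31 genes of Gi/o signalling and presynaptic action, the route of group II and group III receptors, and all were tested. Here 2 genes were higher, 3 were lower and 26 did not pass the test, and the median log2 fold change was -0.05. Over all tested genes, 6.31% were higher and 2.42% lower. *Gnai2*, an inhibitory G protein alpha subunit, was at 154.6 CPM in control against 194 CPM in *Neuid* KD (0.33, edgeR adjusted p = 0.000782). *Kcnj9*, a subunit of the potassium channels that Gi/o opens, was at 18.76 and 14.08 CPM (-0.41, adjusted p = 0.0031), and *Gnb4*, a G protein beta subunit, at 51.17 and 41.49 CPM (-0.30, adjusted p = 0.00125). Of the listed adenylyl cyclases, *Adcy2* rose from 67.27 to 76.26 CPM (0.18, adjusted p = 0.0389) and *Adcy1* fell from 238.9 to 197.7 CPM (-0.27, adjusted p = 0.0338). The other cyclases of the list did not pass the test (edgeR adjusted p from 0.394 to 0.98). Both cyclase calls were fragile: *Adcy2* kept its call in 1 fit that left out a library, without *Neuid* KD replicate 1 (adjusted p = 0.0141, 0.0519 to 0.234 without any other), and *Adcy1* lost its call without control replicate 2, 3, 4, 5 or 6 or *Neuid* KD replicate 2 or 4 (0.0529 to 0.0973). Without a filter on low counts, *Gnai2* (adjusted p = 0.0755) and *Gnb4* (0.0663) lost their calls as well, as did *Kcnj9* within the libraries under 100 CPM of background (0.0695). The 5 called genes had absolute log2 fold changes below 0.5.

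**Figure D5:**
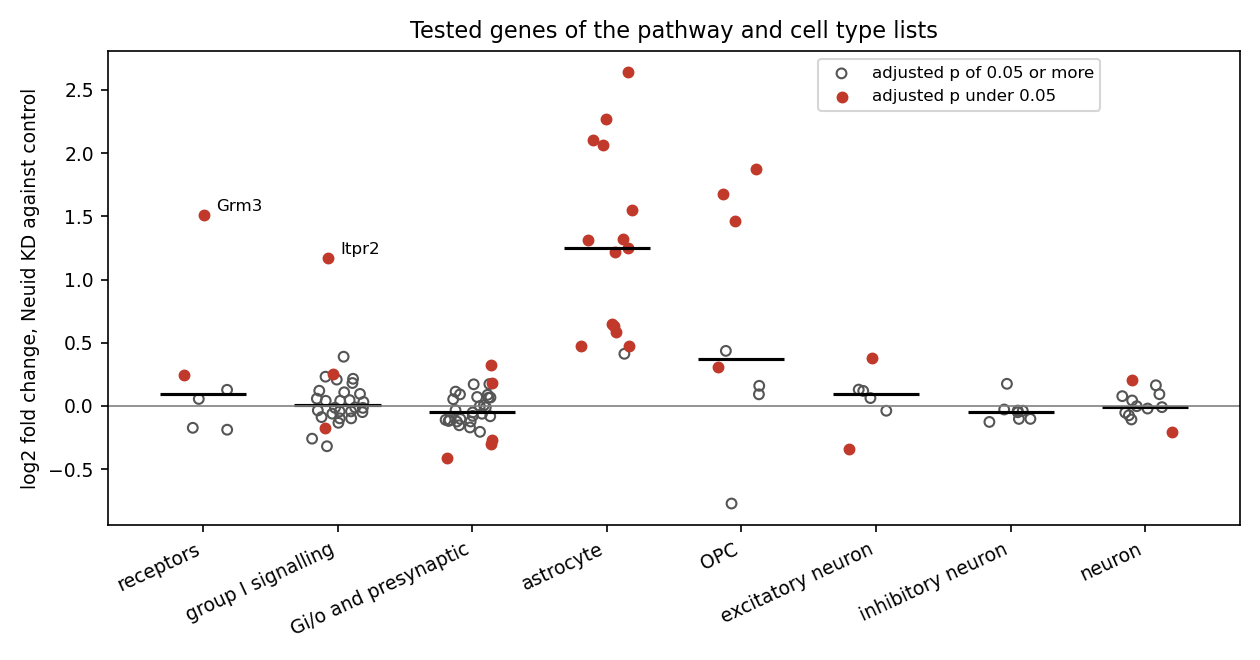
Log2 fold change of the receptors and of the genes of each list, *Neuid* KD against control, with 1 point per gene and the median of each list. *Grm3* at 1.51 and *Itpr2* at 1.17 stand apart from the other receptors and signalling genes, and the astrocyte markers reach 2.64.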

How the data were processed

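Total RNA libraries of mouse hippocampal cultures (12 in all, 6 control, 6 *Neuid* KD) were made by the authors with a stranded low-input kit, aligned to mm10 with STAR and counted per gene with featureCounts. The strand and multimapping settings are not given in the sources used here. The deposited values are raw counts per gene, without normalization. Symbols and positions came from GENCODE annotation of GRCm38 (55230 of 55471 genes) and promoter windows from RefSeq.

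Counts were tested with edgeR 4.0.16 in R 4.3.3 (quasi-likelihood test, TMM, filterByExpr, group as the only term, Benjamini-Hochberg adjustment over 19578 genes, threshold 0.05). The authors used DESeq2 with RUVSeq. DESeq2 1.42.0 and 2 factors computed in the manner of RUVs were alternatives, as were other normalizations, filters, a background covariate, GC and length offsets, and leaving out each library. Single values and marker sums were compared by exact permutation over 924 arrangements. CPM uses library sizes over the tested genes, and for correlations was log2-transformed with a prior count of 2. Background relations used 100000 permutations. The test was checked on simulated counts. Library totals were 11152556 to 30914714 reads, and the highest correlation between any 2 libraries was 0.9879.

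Named by rule were the 6 receptors, *Grm6*, *Neuid*, the 3 genes most like each receptor (2 for *Grm7*), and from each signalling list the genes past the test with an absolute log2 fold change above 0.5 or, where there were 0, the 3 with the smallest adjusted p in each direction. *Plcb1*, *Mapk3*, *Homer1* and the marker genes given singly were chosen after their values were seen. Background genes were chosen by symbol. Some results are not reported here. The members and lists were chosen with earlier results of these data known, and nothing here is independent support for those results.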

Additional observations from a re-analysis of the deposited data

Results flagged for a closer look

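Single libraries were compared with the rest of their group in 28 groups of 6 (14 genes, control and *Neuid* KD), and 3 had a library far from the others. Chance alone gives about 1 in 20. *Grm2* in *Neuid* KD replicate 1 was at 4.63 CPM, with the other *Neuid* KD libraries at 3.61 to 3.98 CPM. *Kcnj9* in control replicate 6 was at 22.2 CPM, with the other control libraries at 17.5 to 19.2 CPM. *Adcy1* in *Neuid* KD replicate 1 was at 149.5 CPM, with the other *Neuid* KD libraries at 196 to 221 CPM. *Neuid* KD replicate 1 had the fewest reads of all libraries, 11152556, and the most background reads of its group.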

How the results depend on the processing

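*Grm3* kept its direction and its call under all 11 alternatives (log2 fold change 1.44 to 1.54) and in all 12 fits without 1 library (1.45 to 1.54). *Grm7* lost its call with DESeq2 size factors in edgeR (0.22, adjusted p = 0.0527), without a filter on low counts (0.25, 0.355), within libraries of at least 100 CPM of background (0.19, 0.561) and with GC and length offsets (0.23, 0.105), which left 1 member higher in each. The other 7 alternatives kept the *Grm7* call, with adjusted p from 0.000958 (background covariate) to 0.0324 (DESeq2). Without 1 library, *Grm7* ranged from 0.18 to 0.27 and the members higher from 1 to 2. *Grm4* changed sign with upper-quartile normalization (-0.0040) and under 100 CPM of background (-0.12), and ranged from -0.0153 to 0.10 without 1 library. *Grm8* was at 0.17 within libraries of at least 100 CPM and -0.44 within those under 100 CPM, and ranged from -0.79 to 0.0059 without 1 library, *Grm2* was at 0.19 under 100 CPM, and *Grm6* ranged from -0.47 to 0.64 without 1 library and was at 0.91 with the RUVs-like factors and 0.73 with the background covariate, against 0.18. *Grm5* was at 0.07 with upper-quartile normalization, against 0.13, and at 0.09 to 0.15 without 1 library. None of these 5 passed the test in any setting that gave a value (DESeq2 gave no adjusted p for *Grm6*). The causes were not tested.

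The list and gene counts depended more on the setting. Group I signalling genes numbered 2 higher and 1 lower, Gi/o and presynaptic genes 2 and 3, and all genes 1235 and 473. Upper-quartile normalization gave 3 lower group I genes, 11 lower Gi/o genes and 1259 lower genes in all. DESeq2 size factors gave 1 higher Gi/o gene, and DESeq2 gave 4 higher group I genes. Without a filter there were 0 lower group I genes, 0 higher and 1 lower Gi/o genes, and 711 and 229 genes in all. A filter of 1 CPM in 6 libraries gave 7 higher group I genes, 6 lower Gi/o genes and 802 lower genes. The RUVs-like factors and the background covariate each gave 7 higher group I and 5 lower Gi/o genes, with 935 and 987 lower genes in all. Libraries of at least 100 CPM gave 1 and 0 group I genes, 1 higher Gi/o gene, and 651 and 205 genes in all, and libraries under 100 CPM gave 5 and 3, 4 and 9, and 799 lower genes. GC and length offsets gave 0 lower group I genes and 1 higher Gi/o gene. The authors' threshold, an absolute log2 fold change above 0.5, was chosen for the members after seeing the data. It left 1 member higher, 1 and 0 group I genes, 0 and 0 Gi/o genes, and 477 and 155 genes in all.

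With the replicate number as a block, *Grm7* was at 0.24 (adjusted p = 0.0202), 6 group I genes were higher and 0 lower, and 1 Gi/o gene was higher, with *Adcy2* no longer called (0.0597). *Adcy2* lost its call in 5 of 11 alternatives and *Adcy1* in 2. Same-numbered libraries deviated together for replicates 1 and 3 (r = 0.774 and 0.751) and not for the other 4 (r from -0.637 to 0.004), so the numbers were not taken to pair the samples. Without 1 library, group I counts ranged from 1 to 5 higher and 0 to 2 lower, Gi/o counts from 1 to 3 higher, and all genes from 822 to 1208 higher and 355 to 780 lower, with 822 without *Neuid* KD replicate 2 and 780 lower without *Neuid* KD replicate 1. *Grm8* and *Grm6* had the fewest reads of the receptors, at most 75 and 24 per library, and the part of depth and of background reads in their spread was not tested.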
